A study of Mus musculus with 6 samples.

Results

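The subunits of Mediator were examined in haematopoietic stem and progenitor cells (HSPCs) of mice that had lost Med12, a subunit of the complex itself. The genes are the 33 Mediator subunit genes of the mouse, taken with every probe set that the platform annotation assigns to exactly 1 of their symbols, which gave 72 of the 45037 probe sets tested and 33 of the 18193 genes with a symbol of their own. The tested cells came from Med12Flox;MxCre mice, which carry a floxed Med12 allele and the Mx-driven, interferon-responsive Cre recombinase, and the other cells came from control mice whose genotype, Cre included, the labels do not give. Both groups had a B6/129 background and were sampled 4 days after pI:pC, the double-stranded RNA mimic that switches the Mx promoter on, so that the controls had received it too. In both, lineage-negative bone marrow cells positive for c-Kit and Sca1 were sorted directly from the animals, and 5 ng of total RNA was amplified and hybridised. The Mx promoter responds in many cell types besides blood cells, and the labels give neither age, sex nor the fraction of cells in which the allele had recombined. There were 3 Med12 KO arrays and 3 control arrays, and the labels do not state whether different arrays stand for different mice, so the p-values rest on the spread between arrays, which may be technical.

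Mediator is the large complex that passes signals from DNA-bound transcription factors to RNA polymerase II at promoters. Its core is built from a head and a middle module, which contact the polymerase, and a tail, which receives many activators, all held together by the scaffold subunit Med14. A separable kinase module joins and leaves the core. It consists of the cyclin-dependent kinase Cdk8 or its paralog Cdk19, cyclin C, Med12, which activates the kinase, and Med13, which tethers the module to the core, and Med12 and Med13 also have paralogs, Med12l and Med13l. In blood-forming cells Med12 is known to be needed for stem cell maintenance.

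The values are linear signal intensities per probe set, and differences are given on the scale of log2(signal + 16), as Med12 KO minus control. That scale understates the change of dim probe sets. Median signal over all probe sets was 16.5 to 21.3 on Med12 KO arrays and 26.7 to 26.9 on control arrays, and 45.47% to 49.48% of probe sets on Med12 KO arrays and 41.61% to 42.27% on control arrays were below 16. The sort gate was checked on its markers. The c-Kit gene Kit had signals of 514.8, 556.2 and 617.5 in Med12 KO cells and 805.2, 1014.6 and 1425.4 in control cells on its probe set of highest mean (log2 -0.89, adjusted p = 0.152). A second Kit probe set fell, with 158.2, 170.8 and 138.2 in Med12 KO cells and 338.2, 383.4 and 476.4 in control cells (log2 -1.26, adjusted p = 0.0479 by limma). The progenitor surface genes Cd34 (log2 -1.43, adjusted p = 0.132) and Cd48 (-1.09, adjusted p = 0.244) were also lower without overlap. The T cell genes Cd3e and Cd4, the Cd8a gene and the myeloid gene Itgam had at most 79.1 in Med12 KO cells and 114.6 in control cells. Ly6a, which encodes Sca1, was not analysed here.

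The promoters of 3 subunits are shown because Med12 is the deleted gene, Med13l held the 1 probe set that passed the test, and Med14 had the smallest p among the core genes. Each run is the 250 bases before the RefSeq start of the gene in GRCm38.p6, written 5′ to 3′ along the gene. Capitals mark the letters GGGCGG, the core of a GC box, and CCGGAAG, a core bound by ETS factors, on either strand; the motifs searched did not overlap each other in these windows. The windows lie at chrX:101273841-101274090 (plus strand) for Med12, chr5:118560469-118560718 (plus strand) for Med13l and chrX:12761974-12762223 (minus strand) for Med14.
Med12: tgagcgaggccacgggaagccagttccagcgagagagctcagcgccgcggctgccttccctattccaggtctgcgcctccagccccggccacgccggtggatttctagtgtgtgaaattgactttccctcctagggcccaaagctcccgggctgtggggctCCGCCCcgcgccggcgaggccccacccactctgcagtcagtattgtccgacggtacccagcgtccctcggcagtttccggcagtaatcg
Med13l: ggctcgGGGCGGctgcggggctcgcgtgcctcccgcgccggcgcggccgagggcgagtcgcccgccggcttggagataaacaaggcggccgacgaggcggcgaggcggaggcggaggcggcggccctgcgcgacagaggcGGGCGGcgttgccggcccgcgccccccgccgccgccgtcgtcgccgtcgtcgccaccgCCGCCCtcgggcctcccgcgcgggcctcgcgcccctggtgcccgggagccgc
Med14: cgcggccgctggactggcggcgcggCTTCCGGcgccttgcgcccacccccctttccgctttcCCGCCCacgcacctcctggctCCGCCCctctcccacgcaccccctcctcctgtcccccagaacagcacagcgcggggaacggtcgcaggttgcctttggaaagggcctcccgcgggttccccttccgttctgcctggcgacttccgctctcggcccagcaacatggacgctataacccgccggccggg

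A window of this kind was available for 28 of the 33 members, and Cdk19, Med8, Med23, Med24 and Med30 were not matched. The letters GGGCGG or their complement stood in 19 of the 28 (67.9%), among them all 6 kinase module genes with a window and 13 of 22 core genes, and in 45.8% of the 17491 protein-coding genes with a window. CCGGAAG stood in 6 of the 28 (21.4%), namely Med4, Med10, Med14, Med15, Med17 and Med19, in none of the 6 kinase module genes, and in 10.2% of protein-coding genes. CCAAT stood in 11 of the 28 (39.3%), against 39.5% of protein-coding genes, and TATAAA in 3 of them (10.7%), against 13.7%. The windows of the kinase module genes had a median of 69.2% G and C, those of the core genes 54.0%, and those of all protein-coding genes 55.2%. A match of letters is a description of the window only.

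Within the kinase module, 6 of 20 probe sets had lower signals on every Med12 KO array than on any control array, as did 13.3% of all probe sets. They were the Med12 probe set, 2 of Med13l and 1 each of Med12l, Med13 and Cdk19. The reverse held for 1 probe set, of Ccnc, and for 7.61% of all probe sets. Of the 6, 1 probe set of Med13l fell past the threshold, and Med12 itself did not. No partner subunit stood higher in a way that passed the test, the Med12 paralog Med12l included. With Med12, the deleted gene, set aside, 5 of the other 6 module genes were lower on their probe set of highest mean. Their median log2 difference was -0.34, and 57.8% of all genes were lower. Of the 20 probe sets of the 7 module genes, 15 were lower and 5 higher, 1 fell and 0 rose (limma, Benjamini-Hochberg adjusted p under 0.05 over all 45037 probe sets). The threshold was passed by 0.762% of all probe sets, and by 1 of all 72 Mediator probe sets.

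For Med12 the array carries 1 probe set, 1425585_at. The sources used here do not say whether it lies inside the floxed part, and outside that part its signal would not measure the deletion directly. Its signals were 89.1, 100.4 and 86.4 in Med12 KO cells and 278.6, 837.4 and 441.6 in control cells. The 3 Med12 KO values lay close together, and the 3 control values spread widely above them without overlap. The means were 92.0 ± 7.43 in Med12 KO cells and 519 ± 287 in control cells (SD, n = 3 each). The log2 difference was -2.17 (SE 0.38, 95% interval -3.11 to -1.24), with a limma adjusted p of 0.0796. It passed once the variance prior was trended and robust (adjusted p = 0.0339) and after leaving out the dimmest 25% (0.0271) or the dimmer 50% (0.0248) of probe sets.

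Med13l, the paralog of the subunit that tethers the module to the core, was read by 3 probe sets, all lower in Med12 KO cells. On 1434603_at its signals were 170.0, 152.3 and 173.1 in Med12 KO cells and 524.3, 418.4 and 393.1 in control cells. The groups lay far apart with little spread in either. This probe set fell by 1.34 on the log2 scale (SE 0.15, limma adjusted p = 0.0343) and ranked 156 by p among all probe sets. On 1434602_at, the probe set of highest mean, the signals were 331.1, 219.9 and 190.8 in Med12 KO cells and 467.6, 512.7 and 549.8 in control cells. These groups did not overlap either, and the log2 difference was -1.03 (SE 0.22, adjusted p = 0.108). The third, 1453906_at, was dim, and its groups overlapped at 10.4 to 30.2 in Med12 KO cells and 16.9 to 59.7 in control cells. The call on 1434603_at was lost whenever any 1 of the 6 arrays was left out (adjusted p = 0.0847 to 0.128), and with 4 in place of 16 added before log2 (0.0658), while the difference itself stayed between -1.42 and -1.07 over all settings.

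Med13, the other form of that subunit, had 5 probe sets, again all lower in Med12 KO cells, with log2 differences of -0.80 to -0.06. On its probe set of highest mean, 1453160_at, the signals were 749.4, 532.5 and 513.2 in Med12 KO cells and 662.3, 698.5 and 908.9 in control cells. The ranges overlapped, and the log2 difference of -0.34 had a 95% interval of -0.85 to 0.17 (adjusted p = 0.507). Only the dim 1453161_at kept the groups apart, at 23.8 to 51.4 in Med12 KO cells and 54.2 to 82.1 in control cells (log2 -0.80, adjusted p = 0.225).

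Med12l, the paralog of the deleted gene, gave probe sets that disagreed. On 1441163_at the signals were 89.9, 59.2 and 28.7 in Med12 KO cells and 113.2, 294.0 and 102.9 in control cells. The groups did not overlap, and the log2 difference was -1.25 (95% interval -2.42 to -0.07, adjusted p = 0.294). On 1452864_at the log2 difference was -0.30 and on 1441159_at 0.31, with overlapping groups on both. The upper 95% limits of the 3 probe sets were -0.07, 0.23 and 1.42, so a rise of the size of the upper limit could not be told from no change on 1441159_at. Control replicate 2, which was the highest control on all 3 probe sets, was also the highest control for Med12.

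The kinases did not pass the test. Cdk8, read by 1 probe set, had signals of 209.9, 229.5 and 174.5 in Med12 KO cells and 187.0, 475.0 and 62.7 in control cells. The Med12 KO values all lay inside the control range, and the log2 difference of 0.14 (95% interval -1.43 to 1.71, adjusted p = 0.952) turned to -0.525 without control replicate 3. Its paralog Cdk19 was lower on both of its probe sets. On 1455031_at the signals were 76.6, 140.1 and 70.4 in Med12 KO cells and 240.5, 234.6 and 452.3 in control cells, without overlap (log2 -1.53, SE 0.34, adjusted p = 0.121). On 1434997_at, of higher mean, they were 546.0, 561.0 and 776.2 in Med12 KO cells and 940.0, 597.1 and 874.2 in control cells. There the groups overlapped, and the log2 difference was -0.34 (adjusted p = 0.558).

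Cyclin C (Ccnc), the partner that both kinases share, had 5 probe sets with mixed signs, from -0.51 to 0.40. Its probe set of highest mean, 1454144_a_at, had signals of 168.3, 122.4 and 120.8 in Med12 KO cells and 167.7, 281.4 and 99.7 in control cells. The Med12 KO values lay within the control range on it, and the log2 difference of -0.29 (adjusted p = 0.771) turned to 0.06 without control replicate 2. On 1417861_at the order was the reverse, at 60.1, 50.3 and 62.8 in Med12 KO cells and 45.4, 38.5 and 36.1 in control cells, with no overlap and a log2 difference of 0.40 (adjusted p = 0.244).

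**Figure D1:**
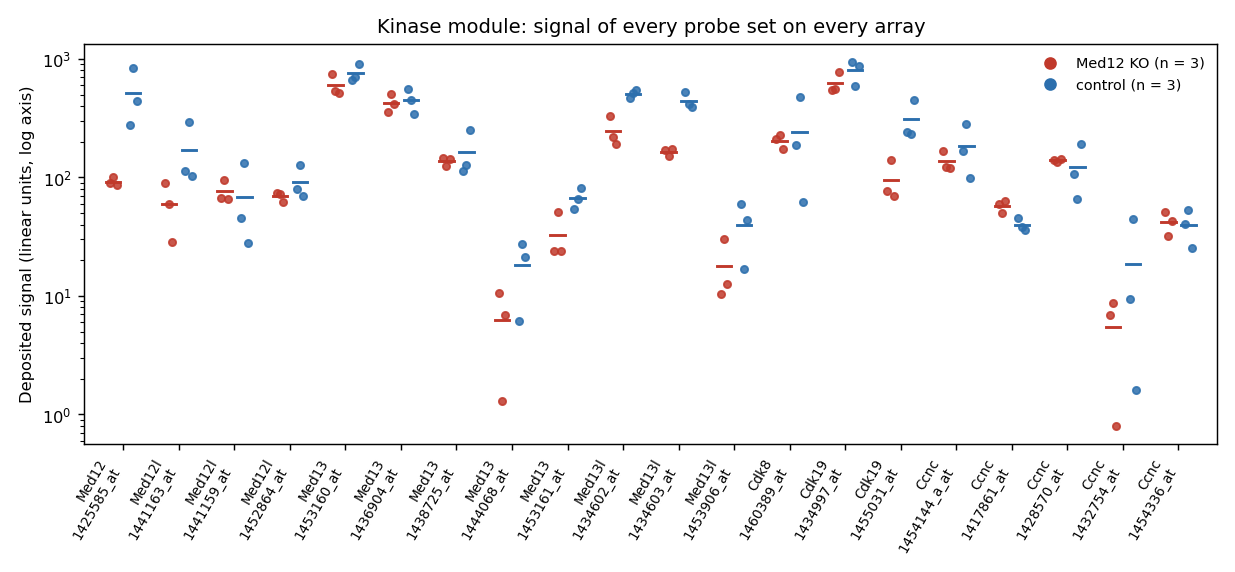
Signal of all 20 kinase module probe sets on each array (log axis), with Med12 KO arrays in red and control arrays in blue, points for arrays and bars for group means (n = 3 each). The Med12 probe set sits at 86.4 to 100.4 in Med12 KO cells and at 278.6 to 837.4 in control cells, and Med12 KO arrays also lie below on 2 Med13l probe sets and 1 each of Med12l, Med13 and Cdk19 (13.3% of all probe sets do), and above on 1 of Ccnc (7.61% do), while the groups overlap on the other 13.

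The 26 core subunits were mostly higher in Med12 KO cells, with log2 differences of -0.53 to 1.58, and none passed the test. Read by the probe set of highest mean for each gene, 21 of the 26 were higher and 5 lower, against 42.2% higher among all genes. Their median log2 difference was 0.44, and that of all genes was -0.06; among the 25 core genes with a mean signal of at least 100, 20 were higher with a median of 0.42, and among all 7878 such genes 55.5% were higher with a median of 0.06. By limma, 0 of the 26 passed and 7 had an unadjusted p under 0.05, all 7 of them higher. Among all genes 0.989% passed and 18.2% had an unadjusted p under 0.05, 7.84% higher and 10.3% lower. In 6 of the 26 all Med12 KO values lay above all control values, as in 9.85% of all genes, and in 0 of the 26 all lay below, as in 13.6% of all genes. Among the 7878 genes with a mean signal of at least 100, these shares were larger above, at 17.9%, and 12.9% below. By limma, 14.7% of those brighter genes were higher at an unadjusted p under 0.05, and 11.3% were lower. Counted by probe set the split was smaller, 31 of 52 higher, with 7 above and 2 below without overlap, which occurred for 7.61% and 13.3% of all probe sets. Of the 19 Mediator genes with several probe sets, 15 had probe sets of both signs.

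Centring each array on its median moved the median of all genes from -0.06 to 0.22, so that 25 of the 26 core genes, all but Med19, were higher on that scale, beside 72.6% of all genes. Relative to the median of all genes, the core median was 0.49 on both scales and 0.37 after quantile normalization. The kinase module median, -0.34, was -0.07 after median centring, where Cdk19 was at -0.07, Med13 at -0.06 and Ccnc at -0.01. Relative to all genes it was -0.29 on both scales and -0.43 after quantile normalization, and 6 of its 7 genes were lower under all 3. Of the core genes, 18 to 23 were higher when 1 array was left out.

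Med14, the scaffold that joins head, middle and tail, had the smallest p among core genes. On 1437632_at its signals were 780.5, 518.7 and 520.7 in Med12 KO cells and 374.8, 275.3 and 310.1 in control cells. Every Med12 KO array exceeded every control array, and the log2 difference was 0.87 (SE 0.21, 95% interval 0.35 to 1.40), with a limma adjusted p of 0.140. A second probe set, 1450229_at, had signals of 405.2, 407.2 and 364.7 in Med12 KO cells and 295.5, 284.0 and 212.8 in control cells, also without overlap (log2 0.56, adjusted p = 0.189). The remaining 3 overlapped, at 0.33, -0.26 and -0.61, all with group means below 100. Over all settings the difference on 1437632_at ran from 0.68 to 1.15 and its adjusted p from 0.0584 to 0.265.

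The head module, which contacts the polymerase and the initiation factors, had 6 of 7 genes higher, a median log2 difference of 0.46 and no calls. Med8 had the largest difference of all 33 genes upwards. Its signals on 1431423_a_at were 422.6, 450.6 and 1171.1 in Med12 KO cells and 263.5, 222.4 and 119.7 in control cells. The groups did not overlap, the third Med12 KO array stood far above the others, and the log2 difference was 1.58 (SE 0.47, adjusted p = 0.197). Its second, dimmer probe set was at -0.07 with overlapping groups. Med17, the central subunit of the head, showed the same array standing out, with 336.5, 420.0 and 1090.1 in Med12 KO cells and 269.1, 378.2 and 189.3 in control cells. Its groups overlapped (log2 0.96, adjusted p = 0.413), and without 1 array at a time the difference ran from 0.46 to 1.29. Med22 differed by 0.45 on the log2 scale (adjusted p = 0.388) and Med20 by 0.69 (adjusted p = 0.559), where the second Med20 probe set was at -0.01. Med18, whose yeast counterpart pairs with that of Med20, had signals of 140.2, 832.3 and 99.2 in Med12 KO cells and 110.4, 189.3 and 209.6 in control cells. The second Med12 KO array stood far above the other 5, and the log2 difference was 0.46 (SE 0.77). Med11 was at 0.26 and Med6 at -0.04.

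In the middle module, which connects the head to the kinase module, 7 of 9 genes were higher, with a median of 0.33 and no calls. Med10 had signals of 873.3, 379.2 and 361.2 in Med12 KO cells and 147.2, 266.6 and 200.9 in control cells. All Med12 KO arrays were above all control arrays, the first by most (log2 1.24, SE 0.39, adjusted p = 0.215). Med21 and Med7, whose yeast counterparts form the hinge of the middle module, also had groups that did not overlap. Med21 had 443.6, 768.5 and 877.0 in Med12 KO cells and 333.0, 384.1 and 418.1 in control cells (log2 0.80, adjusted p = 0.242). Med7 had 692.7, 790.3 and 717.7 in Med12 KO cells and 557.2, 605.9 and 470.6 in control cells (log2 0.42, SE 0.14, adjusted p = 0.239). Both sets of arrays were tight for Med7, and its 95% interval was 0.07 to 0.77. Med9, Med31 and Med4 were at 0.63, 0.33 and 0.28 with overlapping groups, although a second Med9 probe set was at -0.59.

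Med1, the middle subunit that binds nuclear receptors, was close to 0 on its probe set of highest mean. The signals there were 758.4, 591.9 and 501.4 in Med12 KO cells and 698.2, 590.8 and 569.7 in control cells. The log2 difference was -0.02 with a 95% interval of -0.48 to 0.44. The other 6 Med1 probe sets ran from -0.29 to 1.14, the last of them dim in control cells. On 1 of the 6, 1421907_at, Med12 KO cells were lower without overlap. Its signals were 510.0, 585.4 and 478.9 in Med12 KO cells and 637.1, 641.3 and 648.1 in control cells (log2 -0.29, adjusted p = 0.346 by limma). Med26, which recruits elongation factors to the complex, was at 0.04, and Med19 at -0.53 on one probe set and 0.41 on the other.

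The tail, the module that many activators bind, had a median log2 difference of 0.11, or 0.38 after median centring, with 4 of 5 genes higher and groups overlapping in all 5 on the probe set of highest mean. Med15 had signals of 959.8, 592.8 and 427.2 in Med12 KO cells and 508.0, 494.1 and 337.2 in control cells (log2 0.49, adjusted p = 0.542). Its other 3 probe sets were dim and of both signs. On 1 of them, 1441617_at, the order was the opposite and the groups did not overlap, at 18.6, 18.1 and 11.0 in Med12 KO cells and 43.0, 51.1 and 20.8 in control cells (log2 -0.73, adjusted p = 0.257). Med24 had 126.0, 131.9 and 128.6 in Med12 KO cells and 102.2, 135.3 and 132.4 in control cells, a log2 difference of 0.06 (95% interval -0.28 to 0.41). Med25 was at -0.23, or at 0.04 after median centring. Med16 was at 0.11, as was Med23, a target of signalling-dependent activators.

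Med27 to Med30 sit between head and tail and are assigned to either in different schemes, so they are given apart. Of these, 3 of 4 were higher, with a median of 0.66 and no calls. Med30 had signals of 405.9, 511.7 and 581.5 in Med12 KO cells and 368.5, 363.9 and 320.5 in control cells, with no overlap (log2 0.48, SE 0.17, adjusted p = 0.253). Med29 had 74.0, 202.7 and 115.9 in Med12 KO cells and 60.3, 36.5 and 74.7 in control cells, which overlapped narrowly (log2 0.95, adjusted p = 0.306), while 2 further Med29 probe sets gave -0.36 and -0.14. Med27 was at 0.83 (adjusted p = 0.416) and Med28 at -0.15, or at 0.12 after median centring. With these 4 counted in the tail, its median was 0.11 over 9 genes, and with them in the head, that was 0.48 over 11.

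**Figure D2:**
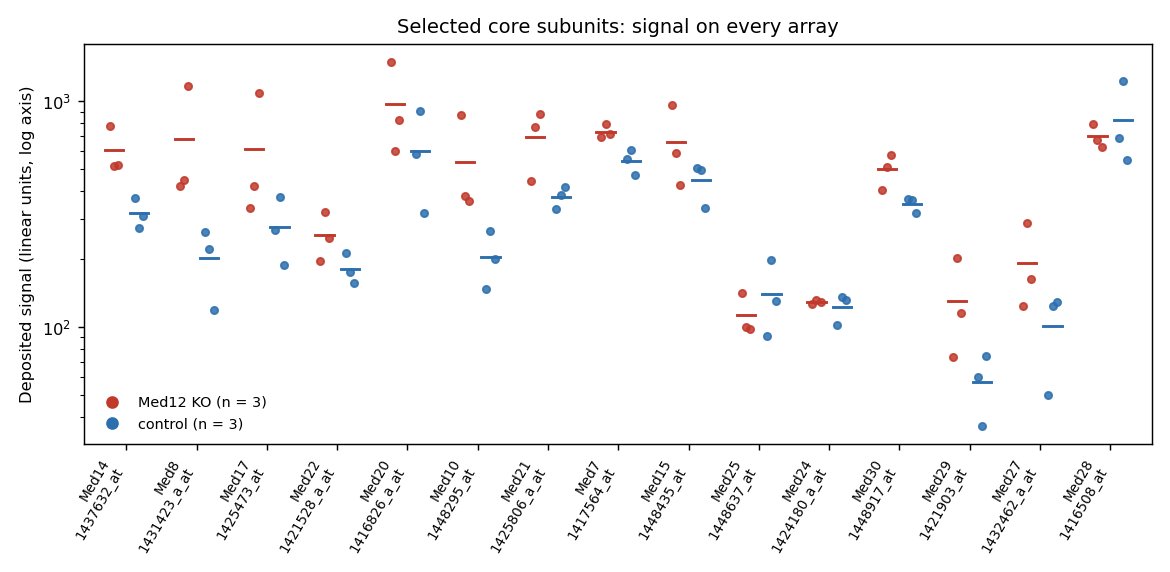
Signal of 15 core subunits on each array (log axis), each read by its probe set of highest mean, with Med12 KO arrays in red, control arrays in blue and bars for group means (n = 3 each). Besides Med14, the genes were picked by the smallest p or the highest mean in their core group. The groups are apart for Med14, Med8, Med10, Med21, Med7 and Med30, with Med12 KO above. This held for 9.85% of all genes, and for 17.9% of those with a mean signal of at least 100. The third Med12 KO array stands high for Med8 (1171.1) and Med17 (1090.1).

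The submodules were also set side by side by array. Each gene was expressed as its log2 signal minus its control mean, and the median over the genes of a submodule was taken on each array. For the kinase module these medians were -0.52, -0.48 and -0.53 in Med12 KO cells and -0.12, 0.69 and -0.09 in control cells. Control replicate 2 stood apart upwards, as it did for Med12, Med12l and Cdk8, and without it the median log2 difference of the module was -0.54. For the middle module they were 0.29, 0.30 and 0.40 in Med12 KO cells and 0.14, 0.14 and -0.20 in control cells. For the head they were 0.12, 0.61 and 0.56 in Med12 KO cells and 0.07, 0.19 and -0.47 in control cells, so that the groups overlapped. The tail overlapped too, at 0.07, 0.08 and 0.06 in Med12 KO cells and -0.23, 0.13 and -0.03 in control cells. Med27 to Med30 did not, at 0.27, 0.99 and 0.70 in Med12 KO cells and -0.05, 0.20 and 0.11 in control cells. Arrays were not centred here, and median centring moved the kinase module median difference from -0.34 to -0.07. No test was made of these medians, since the genes were chosen with earlier results of these data known.

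**Figure D3:**
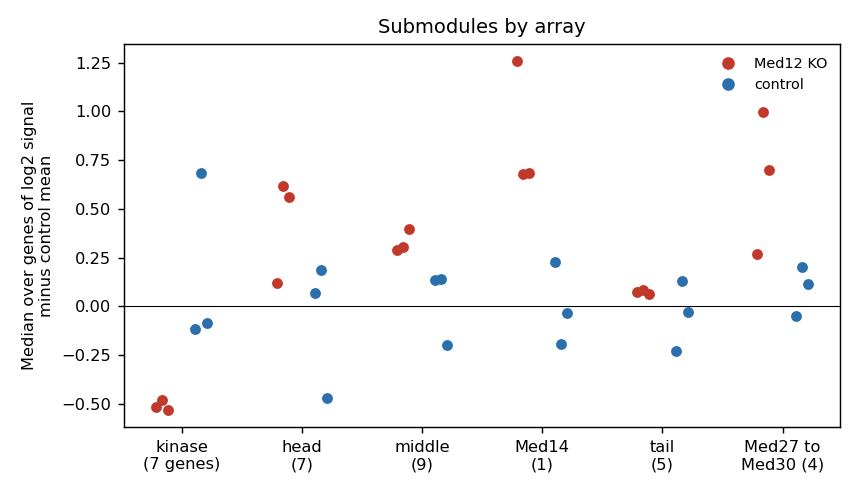
Median over genes of log2 signal minus the control mean, by submodule and array, with Med12 KO arrays in red and control arrays in blue. Kinase module medians lie at -0.53 to -0.48 in Med12 KO cells and at -0.12 to 0.69 in control cells, and those of the middle module at 0.29 to 0.40 and at -0.20 to 0.14. Arrays were not centred on their medians.

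The machinery that Mediator acts on was described in the same way for 41 measured genes of 46 listed. By limma 0 of the 41 passed and 14 had an unadjusted p under 0.05, 12 higher and 2 lower, beside 18.2% of all genes (7.84% higher and 10.3% lower), and the median log2 difference was 0.26, or 0.31 above that of all genes. In 14 of the 41 all Med12 KO values lay above all control values (9.85% of all genes), and in 2 below (13.6%). Among the 7878 genes with a mean signal of at least 100, 17.9% lay above and 12.9% below, with a median log2 difference of 0.06. Of those brighter genes 26.0% had an unadjusted p under 0.05 by limma, 14.7% higher and 11.3% lower. By sign 25 of the 41 were higher, or 39 after median centring. Counted by probe set, 7 of 14 RNA polymerase II, 19 of 33 initiation and 12 of 28 elongation probe sets were higher. Among all probe sets 38.8% were higher. Of 10 RNA polymerase II subunits 6 were higher, with a median of 0.30; Polr2d had 292.6, 350.6 and 256.4 in Med12 KO cells and 187.6, 197.5 and 163.8 in control cells (log2 0.66, adjusted p = 0.136), and Polr2f was at 0.53 (adjusted p = 0.253). The initiation factors had 11 of 17 genes higher and a median of 0.55. Gtf2h5, a small subunit of the TFIIH complex, had 1159.9, 1201.4 and 960.2 in Med12 KO cells and 548.0, 606.1 and 421.9 in control cells (log2 1.06, adjusted p = 0.0761), and the TFIIE subunit gene Gtf2e2 was at 1.07 (adjusted p = 0.104). Of the 14 elongation genes 8 were higher, with a median of 0.08. Among them Ell2, an elongation factor, had 722.8, 599.5 and 801.9 in Med12 KO cells and 260.1, 321.8 and 150.0 in control cells (log2 1.53, adjusted p = 0.0915). Aff4, the scaffold of the super elongation complex, went the other way, with 298.2, 226.2 and 239.8 in Med12 KO cells and 508.4, 444.8 and 412.3 in control cells (log2 -0.80, adjusted p = 0.0955).

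Marker genes of several blood cell types also differed between the groups. Whether the sorted cells held cells of these types was not tested. The marker lists were chosen with earlier results of these data known, so the counts below are descriptive only. Genes were counted on the probe set of highest mean. Among all genes 0.638% fell and 0.352% rose (limma, adjusted p under 0.05). The summed signal of 7 granulocyte-monocyte progenitor genes was 623.4 to 1497.9 in Med12 KO cells and 8135.0 to 15253.7 in control cells, and 6 of the 7 fell. For 7 early lymphoid genes the sums were 94.0 to 228.5 in Med12 KO cells and 3928.6 to 5020.3 in control cells, where 5 of the 7 fell. Dntt, with the largest fall of these, was at 0.5 to 13.1 in Med12 KO cells. Flt3 and Rag1 were lower without overlap but were not called (limma adjusted p = 0.0573 and 0.199). For 8 erythroid genes they were 5362.6 to 7875.8 in Med12 KO cells and 1546.1 to 1568.3 in control cells, and all 8 rose. Megakaryocyte genes (5 measured) summed to 4656.5 to 6062.8 in Med12 KO cells and 3053.2 to 4451.3 in control cells, with 1, Itga2b, that rose. Gp1bb was higher without overlap but was not called. The groups overlapped for Gp9, Pf4 and Vwf, with log2 differences of 0.15, 0.10 and 0.19. Mast cell and basophil genes (5) summed to 1873.5 to 2282.8 in Med12 KO cells and 1043.3 to 1285.1 in control cells, with 1, Cma1, that rose. A second, dimmer probe set of Ms4a2 rose as well (log2 1.88, limma adjusted p = 0.0293). The groups overlapped for Cpa3, at 810.8 to 933.9 in Med12 KO cells and 696.3 to 997.0 in control cells (log2 0.07). Stem cell genes (5) summed to 465.7 to 604.1 in Med12 KO cells and 927.1 to 1962.5 in control cells, with 1, Hlf, that fell. Without Hlf, left out after the values were seen, the sums of the other 4 overlapped, at 326.5 to 472.3 in Med12 KO cells and 438.3 to 1029.7 in control cells. The part of these shifts in the differences of Mediator genes was not tested, and in such bulk samples fewer cells of a type and less RNA per cell cannot be told apart.

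**Figure D4:**
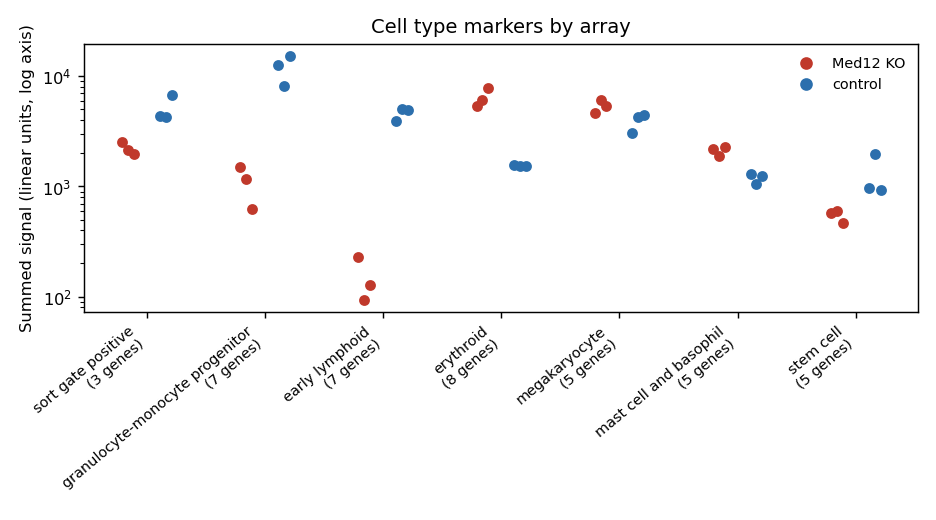
Summed signal of marker genes by cell type and array (log axis), with Med12 KO arrays in red and control arrays in blue. Early lymphoid sums are 94.0 to 228.5 in Med12 KO cells and 3928.6 to 5020.3 in control cells, and erythroid sums are 5362.6 to 7875.8 and 1546.1 to 1568.3.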

How the data were processed

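Signal intensities were deposited by the authors as 1 value per probe set and array. RMA, with no version, is what the submitters' processing notes give. The deposited values nevertheless are linear, include zeros and have a mean of 150 on every array after leaving out the highest and lowest 2%, so the method that made them is not known here. RNA was amplified with the NuGEN Ovation system, per the labels' protocols. Of 45101 probe sets, 64 array controls were left out.

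Values were taken as log2(signal + 16) and fitted with limma 3.58.1 (R 4.3.3; lmFit, then eBayes) on 4 residual and 1.96 prior degrees of freedom. Its two-sided p-values were adjusted by Benjamini and Hochberg's method over all 45037 probe sets with a threshold of 0.05. The fit was also run on simulated data as a check of the code only. Those values were drawn independently for each array, without the shift in median signal between the groups. The annotation, of 2016, gave 34945 probe sets 1 symbol, and 1 probe set shared by Med20 and another gene was left out. The brightest probe set on average stands for its gene, and the rest are given or counted. Levels were not compared between probe sets. Named were the kinase module, Med14, members past the threshold, and per core group the 3 smallest p and the highest mean; other members are given as single values. Per list of partner genes the 2 smallest p were named. Members and lists were chosen with earlier results of these data known. Promoter windows came from RefSeq (GRCm38.p6). Alternatives were other offsets (4 and 64), median centring, quantile normalization, a trended and robust prior, a replicate block, filters on dim probe sets and leaving out each array. The number of arrays limits the precision. All 6 value columns were used.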

Additional observations from a re-analysis of the deposited data

How the results depend on the processing

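Over all probe sets, 343 passed; 693 passed after median centring (62.2% of them higher, against 28.9%), 712 without the dimmest 25% and 763 without the dimmer 50%, and 0 to 10 passed when 1 array was left out, where the limma fits had 5340 to 7141 at an unadjusted p under 0.05. Of the 72 Mediator probe sets 1 passed, against 2 (Med12 and Med13l) with the trended and robust prior or either filter, 0 with 4 added before log2 (13 at an unadjusted p under 0.05), and 0 without any 1 array (9 to 16). The Med12 difference of -2.17 passed under those 3 settings only, and ran from -2.54 to -1.77 (adjusted p = 0.0248 to 0.218). The replicate numbers gave no sign of pairing: same-numbered arrays correlated at 0.002 to 0.019 in their deviations, and other pairs at -0.057 to 0.034. No array correlated best with its own number. With 3 arrays per group such a check cannot show whether the arrays were prepared in pairs. With the replicate block 0 probe sets passed in limma, 0 of them Mediator (6752 and 16 at an unadjusted p under 0.05). Median centring moved the middle median from 0.33 to 0.60, the tail median from 0.11 to 0.38, and the kinase module median from -0.34 to -0.07, by the shift of all genes; averaging the probe sets of each gene moved the median of Med27 to Med30 from 0.66 to 0.31. Leaving out arrays gave medians of -0.62 to -0.27 (kinase module), 0.28 to 0.61 (head), 0.20 to 0.42 (middle), -0.05 to 0.13 (tail) and 0.49 to 0.85 (Med27 to Med30). After median centring Med25 (0.044) and Med28 (0.122) turned sign, and leaving out 1 array turned Ccnc (range -0.624 to 0.057), Cdk8 (-0.525 to 0.796), Med24 (-0.049 to 0.129), Med25 (-0.471 to 0.026) and Med28 (-0.394 to 0.176); apart from the array left out, the cause was not tested. Of the 308 other values of named probe sets under alternatives, 293 kept direction and side of the threshold.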
